A study of Arabidopsis thaliana with 8 samples.

Results

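Genes of cell wall loosening and of directional growth were followed in whole plants of Arabidopsis thaliana: SKU5 (AT4G12420), GH9B13 (AT4G02290), EXPA4 (AT2G39700), EXPA8 (AT2G40610) and XTH33 (AT1G10550). They were chosen by gene symbol in the annotation of the Affymetrix ATH1 array, and each of these 5 genes is represented by 1 probe set, among 22746 probe sets without controls. RNA had been taken from plants of 4 lines. The lab lines were labelled calcicole and calcifuge, and the wild ecotypes came from soils of high pH (the wild high-pH line) or low pH (the wild low-pH line). All were grown in sterile sand with 0.5X Long Ashton nutrient solution in 10 hour days at 22 °C and 55% humidity, and received 1 or 12.5 mM CaCl2. A calcicole is a plant of lime-rich soil, and a calcifuge one of acid soil. With 1 array for each combination of line and dose, there are 8 in all, and lines serve as the replicates of the dose. The labels give neither accession names, genotypes, plant age nor the number of plants pooled for an array, so every statement on a line concerns the plants on its 2 arrays.

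A growing plant cell enlarges when its wall yields to turgor. Alpha-expansins, such as EXPA4 and EXPA8, loosen the contacts between cellulose and other wall polymers without cutting them. Xyloglucan endotransglucosylase/hydrolases, the family of XTH33, cut and rejoin the xyloglucan chains that coat cellulose, and family 9 endoglucanases, to which GH9B13 belongs, cut beta-linked glucans. SKU5 encodes a glycoprotein of the plasma membrane and wall that resembles multicopper oxidases, and Arabidopsis mutants in it show altered direction of root growth. Calcium ions also take part in wall mechanics, since they bridge pectin chains.

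The values are MAS5 signals, a linear measure of brightness per probe set, and no signal of 1 gene is set against that of another. Differences are on the log2(signal + 2.507) scale, with the standard error (SE) of a limma model of line and dose fitted to 13647 probe sets. A difference was called at a Benjamini-Hochberg adjusted p under 0.05 over all of these. All 5 genes passed the filter, which dropped 40% of probe sets, those lowest in mean log2 signal. XTH33 passed it narrowly, with a mean above that of 41.2% of probe sets, whereas the other members stood above 76.4% to 81.3%. Median signals of the arrays were between 42.4 and 47.8. Across probe sets, log2 signals of the 2 arrays of a line correlated at 0.944 to 0.955, and those of arrays from different lines at 0.903 to 0.953. Of 20 root marker names 3 were found in the array annotation, and of 16 green shoot marker names 4 were. A gene can be listed under more than 1 name, so these are counts of names. Markers of flower and seed (20 names) and of lignified stem (12 names) are not named in the annotation used, and those tissues were not checked. Among the root markers PYK10, a beta-glucosidase gene of roots, was between 49.2 and 830, and EXPA7 and EXPA18, expansin genes of root hairs, were low, between 8.86 and 34.6. The green shoot markers RCA, LHCB4.1, PSAE-1 and PRK were between 1159 and 6387.

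**Figure D1:**
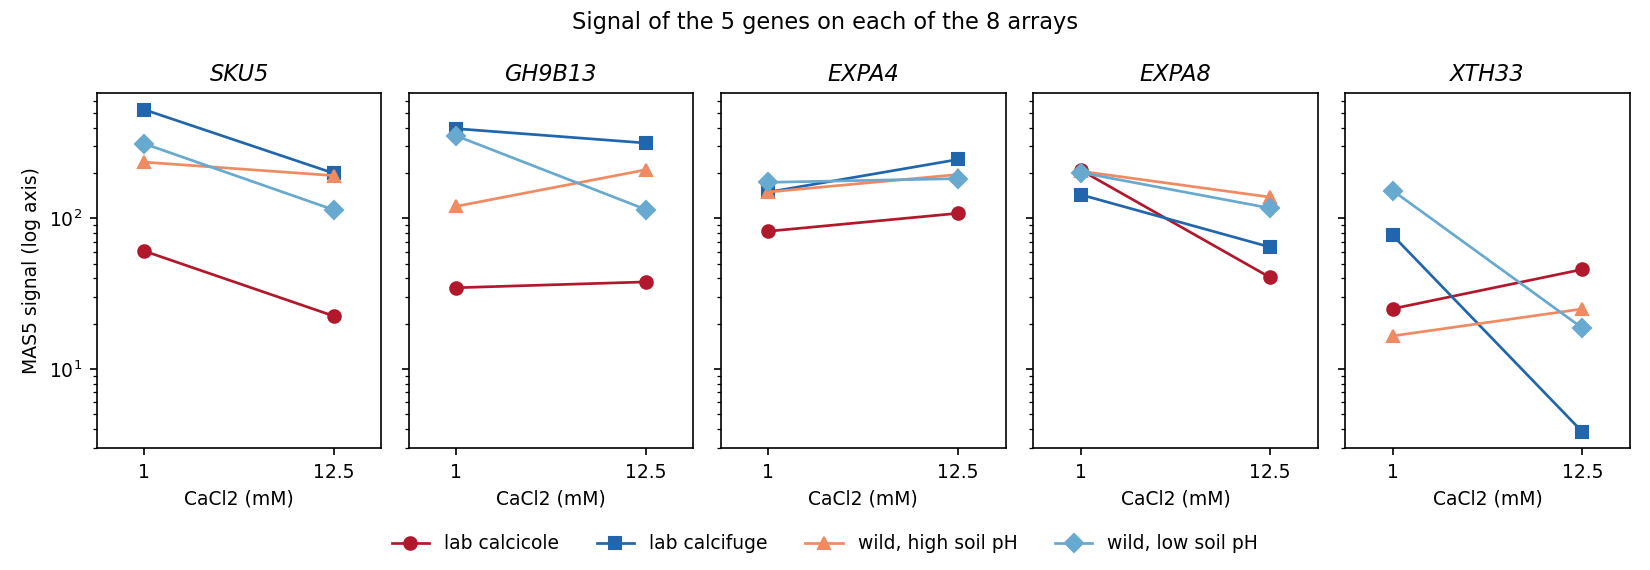
MAS5 signal (log axis) of each gene at 1 and 12.5 mM CaCl2 in the 4 lines, 1 array per point, with a line joining the arrays of the same plant line. SKU5, GH9B13 and EXPA4 are lowest in the lab calcicole at both doses, and XTH33 is lower at 12.5 than at 1 mM in the calcifuge-class lines, at 3.83 (lab) and 18.7 (wild).

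The comparison of the lab calcicole with the lab calcifuge asks which genes differ between these lines, labelled for contrasting soil types, under shared culture. SKU5 and GH9B13 were lower in the lab calcicole, by 8.23-fold and 9.18-fold. For SKU5 the lab calcicole gave signals of 60.7 at 1 mM and 22.4 at 12.5 mM, and the lab calcifuge gave 527 and 199. The wild high-pH line gave 236 and 192, and the wild low-pH line 313 and 114. Both lab calcicole arrays thus lay below all others. At 1 mM the signal of SKU5 was 8.68 times as high in the lab calcifuge as in the lab calcicole, and at 12.5 mM 8.87 times, a ratio nearly the same at both doses. The difference on the log2 scale was -3.04 ± 0.31 (SE, 2 arrays per line, limma adjusted p 0.00509), and 34 of the 13647 probe sets, SKU5 included, differed by as much or more in this direction. When any 1 array was left out it was still called (limma adjusted p 0.00366 to 0.0431).

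GH9B13, the endoglucanase gene, gave 34.6 at 1 mM and 37.8 at 12.5 mM in the lab calcicole, and the lab calcifuge gave 394 and 316. The wild high-pH line gave 120 and 210, and the wild low-pH line 353 and 114. The lab calcicole was again below the 6 other arrays. In the lab calcicole the signal of GH9B13 moved little between doses, whereas the wild lines crossed. The lab calcifuge signal was 11.4 times that of the lab calcicole at 1 mM and 8.35 times at 12.5 mM. The difference was -3.20 ± 0.49 (limma adjusted p 0.0179). When any 1 of the 4 lab arrays was left out it was not called (differences of -3.45 to -2.95, adjusted p 0.0633 to 0.116), nor was it with no filter (0.0865).

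EXPA4, an alpha-expansin gene, showed the same order with a smaller gap. Its signals at 1 and 12.5 mM were 82.1 and 108 for the lab calcicole and 149 and 246 for the lab calcifuge. They were 149.6 and 195 for the wild high-pH line and 173 and 183 for the wild low-pH line. The lab calcicole arrays were below the 6 others and did not overlap them. The difference from the lab calcifuge was -1.01 ± 0.22, a 2.01-fold lower level, with a limma adjusted p of 0.0503, and so was not called. It passed with quantile normalization (0.0460), with a pseudocount of 16 (0.0381), with the stricter filter (0.0380) and with the trended, robust variance (0.0312).

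EXPA8 and XTH33 did not share this pattern. For EXPA8 the difference between the lab calcicole and the lab calcifuge was -0.05 ± 0.40 (95% confidence interval -0.98 to 0.88). For XTH33 it was 0.70 ± 1.05 (-1.75 to 3.15), a wide interval, since the unlike CaCl2 changes of its lines enter the error. Of the 5 members 2 were called in this comparison, against 4.53% of all probe sets. Of the 5 members 3 had both lab calcicole arrays below the 6 other arrays, as did 11.1% of all probe sets. The choice of genes was made with these results known, so both counts are descriptions.

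Of the 3 root markers, PYK10 was also lower in the lab calcicole. It differed by -2.14 ± 0.41 (limma adjusted p 0.0350), with signals of 49.2 and 203 for the lab calcicole against 247 and 830 for the lab calcifuge. EXPA7 and EXPA18 were below the filter and not tested, and each had the opposite order at 1 dose. EXPA7 gave 21.6 for the lab calcicole and 12.1 for the lab calcifuge at 12.5 mM, and EXPA18 gave 25.2 and 24.7 at 1 mM. The 3 root markers summed to 96.0 to 234 on the lab calcicole arrays and to 305 to 867 on the lab calcifuge arrays, sums made up mostly of PYK10. The 4 green shoot markers summed to 10005 to 13153 and to 11015 to 15427. In whole plants fewer cells of a type and less RNA per cell cannot be told apart. The part of root content in the lab comparison was not tested. At 1 mM the root marker sum was 96.0 in the lab calcicole, 192 in the wild high-pH line and 278 in the wild low-pH line. At 12.5 mM these sums were 234, 235 and 386. PYK10 differed by -0.60 ± 0.41 between the lab calcicole and the wild high-pH line (limma adjusted p 0.372). Against the wild low-pH line it differed by -1.42 ± 0.41 (limma adjusted p 0.0710). The part of root content in these pairs was not tested.

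Against the wild lines the lab calcicole was also lower. SKU5 differed by -2.44 ± 0.31 from the wild high-pH line (limma adjusted p 0.00764) and by -2.27 ± 0.31 from the wild low-pH line (0.0112). GH9B13 differed by -2.06 ± 0.49 (0.0442) and -2.40 ± 0.49 (0.0324). EXPA4 differed by -0.84 ± 0.22 (0.0562) and -0.90 ± 0.22 (0.0496), of which only the latter passed. The EXPA4 calls lie at the threshold: that against the wild low-pH line was lost with a pseudocount of 1 (0.0520) and with no filter (0.143), and the other passed with median centring (0.0491), quantile normalization (0.0463), a pseudocount of 16 (0.0467), the stricter filter (0.0411) and the trended, robust variance (0.0380). With no filter GH9B13 passed against neither wild line (0.139 and 0.120), and SKU5 passed against the wild high-pH line (0.0484) but not the wild low-pH line (0.0613). With the trended, robust variance GH9B13 did not pass against the wild high-pH line (0.0555). Of the green shoot markers PRK, the phosphoribulokinase gene, was also called lower in the lab calcicole (-1.34 ± 0.24 and -1.19 ± 0.24, limma adjusted p 0.0199 and 0.0297). The others were not called. RCA differed by -0.48 and -0.45, LHCB4.1 by -0.53 and -0.62, and PSAE-1 by -0.41 and -0.29. These markers summed to 17069 to 17804 in the wild high-pH line and to 16112 to 17918 in the wild low-pH line. In the lab calcicole they summed to 10005 to 13153. The part of green shoot content in these pairs was not tested. In these pairs 2 and 3 of the 5 members were called, against 9.36% and 8.54% of all probe sets. The pairs with the lab calcicole share its 2 arrays and are not independent of each other. Without the lab calcicole array at 12.5 mM none of the members passed against the wild lines, and without that at 1 mM only SKU5 did, against the wild high-pH line (0.0461). The calls of SKU5 and EXPA4 against the wild low-pH line were also lost without either array of that line, as was that of GH9B13 without its 1 mM array (0.135). The call of GH9B13 against the wild high-pH line was lost without its 12.5 mM array (0.268), and that of EXPA4 against the wild low-pH line without either wild high-pH array (0.0716).

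No pair of the other lines was called for these genes. The lab calcifuge was called against neither wild line for any of the 5 members, where 5.77% of all probe sets were called against the wild high-pH line and 2.46% against the wild low-pH line. For SKU5 the lab calcifuge stood above the wild lines by 0.60 ± 0.31 and 0.77 ± 0.31 (limma adjusted p 0.281 and 0.210), and for GH9B13 by 1.14 ± 0.49 and 0.80 ± 0.49 (0.209 and 0.392). In order of mean log2 signal, SKU5 ran from the lab calcicole through the wild low-pH and the wild high-pH line to the lab calcifuge. Of these steps between neighbours only that above the lab calcicole was called. GH9B13 and EXPA4 had the lab calcicole lowest and the lab calcifuge highest, with the wild high-pH below the wild low-pH line. Their step above the lab calcicole was called for GH9B13 and not for EXPA4, and no later step was called.

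**Figure D2:**
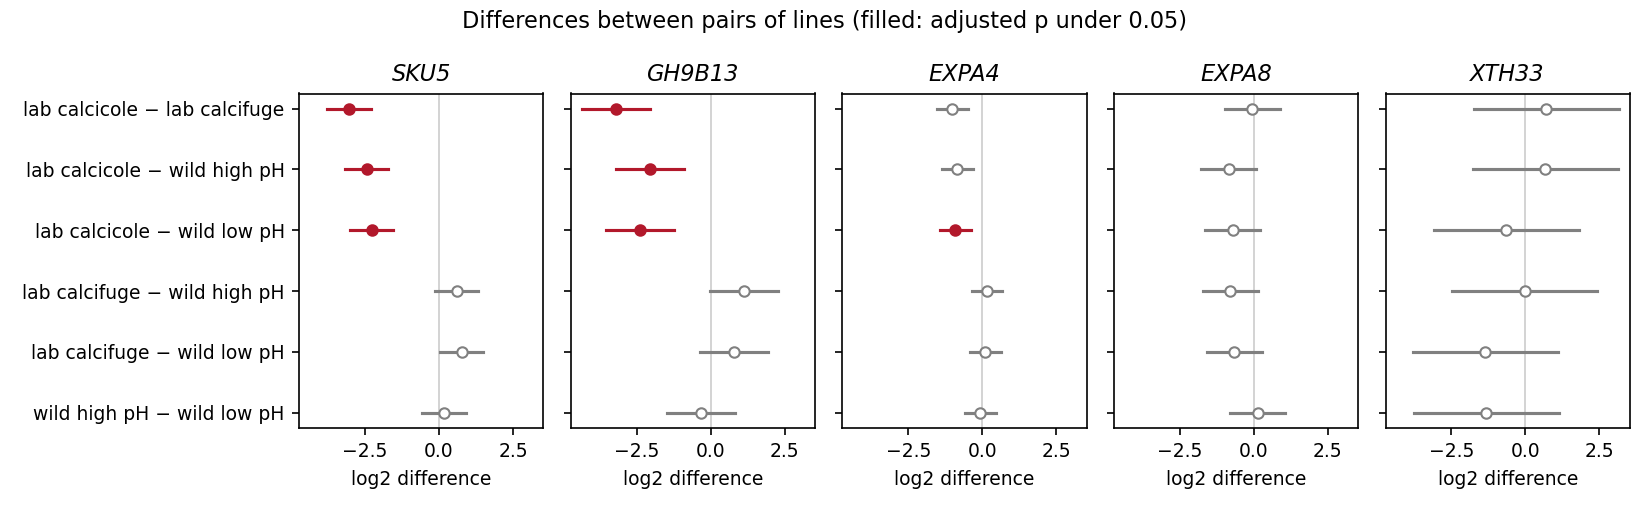
Log2 difference between each pair of lines for the 5 genes, as points with 95% confidence intervals from the limma model. Filled red points passed an adjusted p of 0.05, which SKU5 and GH9B13 do in all 3 pairs that hold the lab calcicole, EXPA4 does in 1 of them, and EXPA8 and XTH33 in none.

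The comparison of the wild ecotypes asks whether the same genes differ between plants from soils of high and low pH, grown in shared culture. With a single line per soil type, it cannot show whether a gene follows soil type. The wild lines were not separated by any of the 5 members, where 0.33% of all probe sets were called. The difference, high minus low soil pH, was 0.17 for SKU5 (95% confidence interval -0.56 to 0.90), -0.33 for GH9B13 (-1.48 to 0.82) and -0.06 for EXPA4 (-0.58 to 0.46). For EXPA8 it was 0.13 (-0.79 to 1.06) and for XTH33 -1.32 (-3.77 to 1.12). The intervals of SKU5, GH9B13 and EXPA4 in the wild pair do not reach the sizes of their lab differences, of which that of EXPA4 was not called. The test of the lab line difference minus the wild line difference gave -3.21 ± 0.44 for SKU5 (limma adjusted p 0.0234), -2.86 ± 0.70 for GH9B13 (0.121) and -0.95 ± 0.31 for EXPA4 (0.217). Only SKU5 of the 5 members passed, against 1.16% of all probe sets. Without the wild high-pH array at 1 mM it passed, at -3.76 (adjusted p 0.0339). When any 1 of the other arrays was left out it did not, at -3.43 to -2.66 (adjusted p 0.0549 to 0.108), nor with no filter (0.116).

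Taken as origins, lab minus wild, SKU5 was called at -0.83 ± 0.22 (limma adjusted p 0.0430). This 1 call among the 5 members is near the share of 15.9% over all probe sets and is no result about the members as a set. GH9B13 differed by -0.63 ± 0.35 (0.248), EXPA4 by -0.37 ± 0.16 (0.146) and EXPA8 by -0.75 ± 0.28 (0.109). For SKU5 this mean covers a lab calcicole below and a lab calcifuge above the wild lines, and it describes neither lab line. It passed without the wild high-pH array at 1 mM (-1.11, adjusted p 0.0194) and did not when any 1 of the others was left out (-0.94 to -0.56, adjusted p 0.0569 to 0.140). Of the green shoot markers PRK differed by -1.003 ± 0.17 here (limma adjusted p 0.0131), and the others were not called. RCA differed by -0.45 ± 0.15 (limma adjusted p 0.0842), LHCB4.1 by -0.44 ± 0.16 (0.0985) and PSAE-1 by -0.28 ± 0.17 (0.289). The part of green shoot content was not tested.

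The CaCl2 response asks what the higher supply changed in all lines. None of the 5 members was called, as only 0.0147% of all probe sets were. EXPA8 was lower at 12.5 than at 1 mM in each line. Its signal was 209 at 1 mM and 40.5 at 12.5 mM in the lab calcicole, and the lab calcifuge gave 144 and 64.4. The wild high-pH line gave 205 and 138, and the wild low-pH line 201 and 117. The signals at 1 mM and those at 12.5 mM did not overlap, and the share of all probe sets without overlap was not counted. The difference of EXPA8 was -1.19 ± 0.28, a 2.28-fold lower level over 4 lines (limma p 0.00332, adjusted p 0.151). The size varied among lines, since the lab calcicole was 5.17-fold lower and the lab calcifuge 2.23-fold, against 1.49-fold for the wild high-pH line and 1.72-fold for the wild low-pH line.

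SKU5 was also lower at 12.5 mM in each line, by 2.70-fold for the lab calcicole, 2.65-fold for the lab calcifuge and 2.75-fold for the wild low-pH line, but by 1.23-fold for the wild high-pH line. These changes were close to each other in 3 lines and small in the wild high-pH line. The difference was -1.12 ± 0.22 (limma p 0.00121, adjusted p 0.115). EXPA8 and SKU5, 2 of the 5 members, were lower in all 4 lines, as were 10.5% of all probe sets.

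EXPA4 had the opposite sign. Its difference was 0.39 ± 0.16 (limma adjusted p 0.360), with signals at 12.5 mM that were 1.32 times those at 1 mM for the lab calcicole and 1.65 times for the lab calcifuge. For the wild high-pH line the ratio was 1.31, and for the wild low-pH line 1.06. It was higher in all 4 lines, as were 10.6% of all probe sets. Thus EXPA4 and EXPA8, both alpha-expansin genes, differed in sign in each line. Their log2 signals correlated at -0.13 over the 8 arrays, as a description of arrays that share lines and doses.

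The root markers differed among themselves in the CaCl2 response. PYK10 had a difference of 1.17 ± 0.29 (limma adjusted p 0.169), and its signal was higher at 12.5 mM in all 4 lines. EXPA7 was lower at 12.5 mM in 3 lines, from 33.5 to 12.1 for the lab calcifuge, and EXPA18 was lower in 2, from 25.2 to 8.86 for the lab calcicole, and neither was tested. The green shoot markers differed by -0.33 to -0.09. The part of tissue make-up in the changes was not tested.

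**Figure D3:**
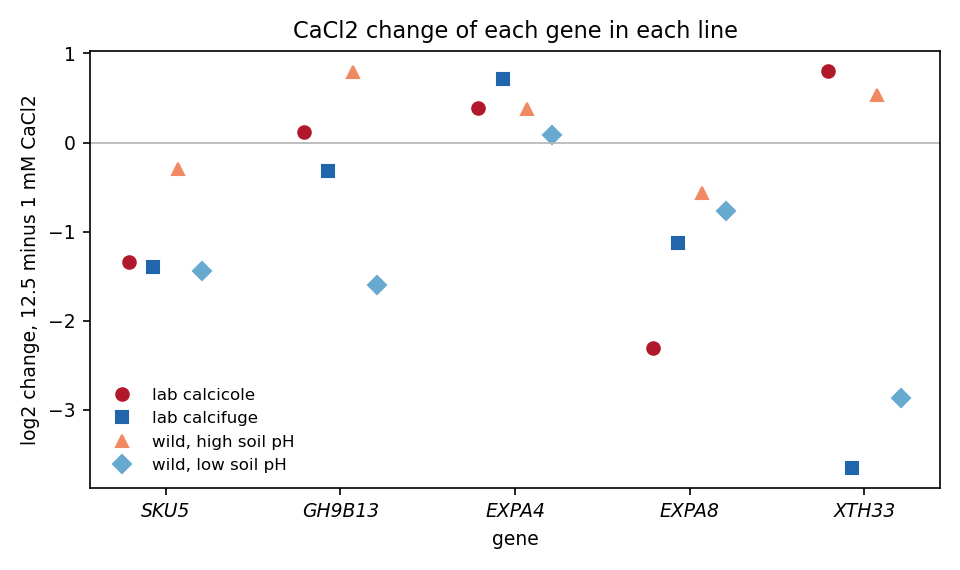
Log2 change from 1 to 12.5 mM CaCl2 of each gene in each of the 4 lines, 1 point per line. EXPA8 and SKU5 lie below 0 in all 4 lines, EXPA4 lies above 0 in all 4, and XTH33 lies above 0 in the calcicole-class lines and below 0 in the calcifuge-class lines.

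XTH33, the xyloglucan-modifying enzyme gene, had opposite signs of CaCl2 response in the soil classes, with the wild high-pH line set beside the calcicole and the wild low-pH line beside the calcifuge. In the lab calcicole its signal was 25.1 at 1 mM and 45.8 at 12.5 mM, and the wild high-pH line gave 16.6 and 25.03. The lab calcifuge gave 77.2 and 3.83, and the wild low-pH line 153 and 18.7. At 1 mM the calcifuge-class lines were above the calcicole-class lines, and at 12.5 mM they were below them. How many of all probe sets had this order was not counted. On the log2 scale the calcicole class changed by 0.81 (lab) and 0.53 (wild), and the calcifuge class by -3.65 (lab) and -2.87 (wild).

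The difference in response between the classes was 3.93 ± 0.36 for XTH33 (95% confidence interval 3.05 to 4.81, limma p 2.95e-05, adjusted p 0.199), and it was not called. Of the 13647 probe sets 7, XTH33 included, had a difference as high, and 2 had so small a p. These ranks are descriptions. XTH33 passed the filter narrowly, and its highest signals were those of the calcifuge-class lines at 1 mM, which enter this difference. In limma 0 probe sets, 0%, passed in this comparison, and 805 had an unadjusted p under 0.05. The signal of 3.83 is close to the pseudocount of 2.507, and with a pseudocount of 16 the difference was 2.72. With no filter the difference stayed at 3.93, with a limma adjusted p of 0.904. The CaCl2 response of XTH33 over all lines, -1.30 ± 0.74 (adjusted p 0.517), averages these opposite changes. Of the root markers PYK10 differed in response by 0.08 ± 0.63 between the classes (limma adjusted p 0.992), and EXPA7 and EXPA18 were not tested. EXPA7 went from 33.5 to 12.1 in the lab calcifuge and from 33.8 to 26.2 in the wild low-pH line. It stayed at 21.6 in the lab calcicole and went from 26.0 to 25.7 in the wild high-pH line. EXPA18 was lower at 12.5 mM in the calcicole class, 25.2 to 8.86 (lab) and 34.6 to 29.7 (wild). In the calcifuge class it went from 24.7 to 24.9 (lab) and 16.5 to 30.4 (wild). The part of root content was not tested.

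GH9B13 had the same signs by class, with log2 changes of 0.12 for the lab calcicole, 0.79 for the wild high-pH line, -0.31 for the lab calcifuge and -1.60 for the wild low-pH line. Its difference was 1.42 ± 0.50 (limma p 0.0283, adjusted p 0.807) and was 0.77 without the wild low-pH line and 2.06 without the lab calcifuge. Of the 5 members 2 had this pattern of signs, as did 5.97% of all probe sets.

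For the difference in CaCl2 response by origin no member was called, and in limma 0 probe sets passed, 0%, with 687 at an unadjusted p under 0.05. EXPA8 had the smallest p of the members, with a difference, lab minus wild, of -1.05 ± 0.44 (limma p 0.0521, adjusted p 0.990). Without the lab calcicole it was -0.46, and without the lab calcifuge -1.63. Of the root markers PYK10 differed in response by 1.39 ± 0.30 (limma adjusted p 0.988), and EXPA7 and EXPA18 were not tested. The expansin-like gene EXLB1, outside the members, differed by 1.51 ± 0.34 (limma adjusted p 0.988). The part of tissue make-up in these differences was not tested.

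Further genes were found by symbol: 17 expansin genes, 9 XTH genes, 14 family 9 endoglucanase genes, 3 SKU5-similar genes and 3 genes listed under growth direction. That last list was set by symbol, and a part of each of its genes in growth direction was not checked. Of these 46, 18 passed the filter, among them 7 expansin, 4 XTH and 4 endoglucanase genes. All 3 genes listed under growth direction passed, and none of the SKU5-similar genes, whose signals were between 0.53 and 30.9.

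This list was also chosen with results of these arrays known. In the lab comparison 2 of the 18 were called, both lower in the lab calcicole, against 4.53% of all probe sets. With no filter 0 were called. Without either lab array at 12.5 mM 0 were called, and without any 1 of the 6 other arrays 1 was. GH9B8, another family 9 endoglucanase gene, gave 58.7 at 1 mM and 41.0 at 12.5 mM in the lab calcicole and between 148 and 305 on the other arrays. Its difference was -2.13 ± 0.35 (limma adjusted p 0.0205). EXPB3, a beta-expansin gene, was at 105 and 47.8 in the lab calcicole and between 203 and 336 elsewhere, a difference of -1.84 ± 0.39 (0.0446). Both had lab calcicole arrays that lay below the 6 others, like those of SKU5 and GH9B13, and so did those of the endoglucanase gene GH9B7 (-0.93 ± 0.21, 0.0541), XTH19 and the alpha-tubulin gene TUA6, 5 of 18 where 11.1% of all probe sets had this order. Of the 18, 13 had a difference below 0, and the median was -0.29, beside 48.5% of probe sets below 0 and a median of 0.01 over all.

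Against the wild high-pH line 4 of the 18 were called lower in the lab calcicole. These were GH9B8 (-2.43 ± 0.35), EXPB3 (-2.10 ± 0.39), EXPB1 (-1.16 ± 0.27) and GH9B7 (-0.92 ± 0.21). Against the wild low-pH line 4 were called lower as well, GH9B8 (-1.96 ± 0.35), EXPB3 (-1.64 ± 0.39), XTH16 (-1.79 ± 0.32) and XTH32 (-1.22 ± 0.21). None of the 18 was called higher in the lab calcicole in these pairs. These counts stand against 9.36% and 8.54% of all probe sets. The median differences were -0.56 and -0.55. Over the 4 pairs of a lab with a wild line 10 calls were made in the list, and 0 with no filter. The number was 2 and 3 without the lab calcicole array at 12.5 and at 1 mM, 3 without either wild low-pH array, 4 without the wild high-pH array at 12.5 mM, and 7 to 8 without any 1 of the others.

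**Figure D4:**
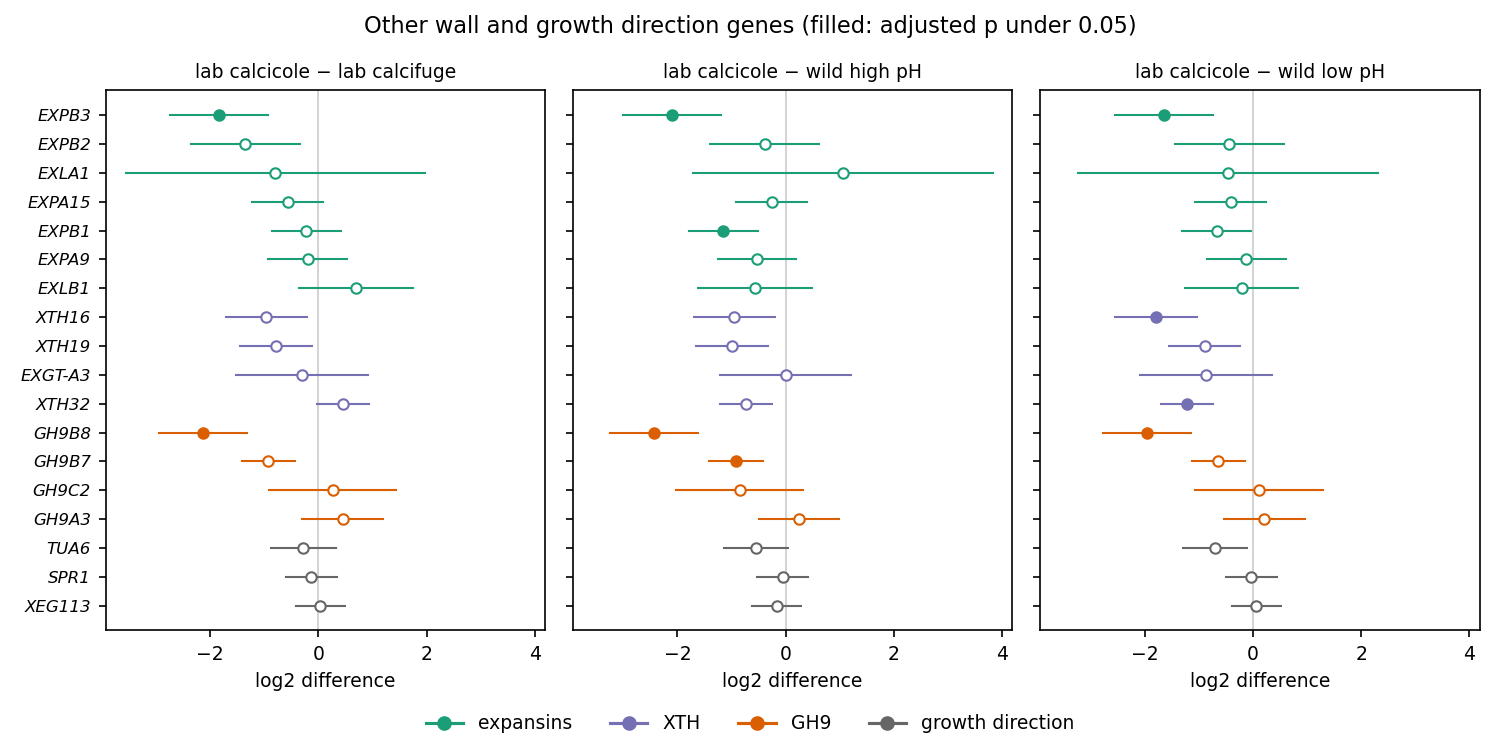
Log2 difference of the lab calcicole from each other line for 18 further genes of the wall and growth direction lists, grouped by list, with 95% confidence intervals from the limma model and filled points at an adjusted p under 0.05. GH9B8 and EXPB3 are filled in all 3 panels, and TUA6, SPR1 and XEG113, listed under growth direction, in none.

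XTH32, a xyloglucan-modifying enzyme gene, was lower in both lab lines. Its signal was between 291 and 431 on the 4 lab arrays and between 605 and 974 on the 4 wild arrays, with no overlap. How many of all probe sets separate in this way was not counted. The difference, lab minus wild, was -1.21 ± 0.15 (limma adjusted p 0.00549), and the lab calcifuge differed from both wild lines (-1.20 ± 0.21 and -1.68 ± 0.21). In this comparison GH9B8 (-1.13 ± 0.25), XTH16 (-0.89 ± 0.23) and EXPB1 (-0.80 ± 0.19) were called lower too, 4 of 18 in all and none higher. The count is near the share of 15.9% called over all probe sets and is no result about the list. Only 1 was called with no filter, and likewise without the lab calcicole array at 12.5 mM, either wild low-pH array or the wild high-pH array at 12.5 mM. Between the wild lines none of the 18 was called.

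In the CaCl2 response none of the 18 was called, 10 were below 0 and 8 above, and the median was -0.05. XTH16 (-1.07 ± 0.23, limma adjusted p 0.129) and the growth direction gene SPR1 (-0.22 ± 0.14) were lower at 12.5 mM in all 4 lines, and the expansin-like gene EXLB1 (0.97 ± 0.32, 0.267) was higher in all 4. These 2 and 1 of 18 are near the shares over all probe sets, 10.5% and 10.6%, and are no result about the list. Among the family 9 endoglucanase genes GH9C2 (0.23 ± 0.36) and GH9B8 (-0.23 ± 0.25) had the largest differences.

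By class, the expansin-like gene EXLA1 had a difference in CaCl2 response of 3.85 ± 0.98 (limma p 0.00733, adjusted p 0.807), close in size to that of XTH33. Its signals at 1 and 12.5 mM were 22.7 and 192 for the lab calcicole and 330 and 41.9 for the lab calcifuge. They were 34.6 and 28.1 for the wild high-pH line and 199 and 43.6 for the wild low-pH line. The sign in the wild high-pH line was thus opposite to that of XTH33. None of the 18 was called, and the endoglucanase gene GH9C2 (-1.30 ± 0.57) and the XTH gene EXGT-A3 (1.16 ± 0.65) had the next largest differences.

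The genes most like each member were taken from 7284 other tested probe sets that name 1 gene, by Pearson correlation of log2 signals over the 8 arrays, which share lines and doses. For SKU5 these were AT3G06130 (0.97), AT3G53190 (0.97) and AT1G04680 (0.97), and for GH9B13 AT1G65295 (0.99), AT3G13650 (0.98) and AT1G56720 (0.98). For EXPA4 they were AT1G57790 (0.95), AT5G11580 (0.95) and AT3G04860 (0.95), and for EXPA8 AT5G12470 (0.98), AT4G14930 (0.96) and AT1G35617 (0.94). For XTH33 they were AT5G26830 (0.98), AT5G27470 (0.95) and AT4G12640 (0.94). These are the highest of many correlations over few arrays, and how high chance alone would reach was not tested. A high correlation does not mean a like size of change. AT5G26830 was between 258 and 384, and XTH33 between 3.83 and 153. Among the members, SKU5 and GH9B13 were most alike, at 0.90, followed by GH9B13 and EXPA4 at 0.80.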

How the data were processed

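Each array measured total RNA of whole plants. The authors made a signal intensity per probe set with MAS5, per the submitters' processing notes, and its version and settings are not given in the sources used here. The deposited intensities are linear and already scaled to a common level, with a trimmed mean (2% off each end) of 100.0 per array. Detection calls and probe-level values were not used here, so transcript level and hybridisation cannot be told apart.

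Control probe sets (64 of 22810) were dropped, and log2 was taken after adding 2.507, which is the 10th percentile of gene values. Models were fitted with limma 3.58.1 in R 4.3.3: line plus dose with 3 residual degrees of freedom, and interactions with 2. The p-values concern these 4 lines and may measure technical spread, as nothing says that the arrays came from separate cultures. The number of arrays limits the precision. The calculation was tested on simulated data. Gene names come from the platform table, updated through TAIR10.1 (names only). Figures used matplotlib 3.10.9.

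The members, gene lists and tests were chosen with earlier results of these data known. Named are all members, the 3 most similar genes of each, family genes past the threshold and otherwise up to 2 per family with large differences. Alternatives were scaling, pseudocount, filter, variance model, threshold, line term, and leaving out arrays or lines.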

Additional observations from a re-analysis of the deposited data

Results flagged for a closer look

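The change of SKU5 with CaCl2 stood apart in 1 of the 4 lines: the wild high-pH line, at -0.29, was separated from the 3 others (-1.44 to -1.34) by 0.913 of the whole range of changes. EXPA8 stood apart in 1 line at 1 mM CaCl2, where the lab calcifuge, at a signal of 144, was separated from the other lines (201 to 209) by 0.898 of the range of log2 signals. Both exceed Dixon's 95% critical value for 4 values. It was applied to 15 sets of 4 values, and chance passes about 1 in 20. SKU5 also differed between the lab and the wild pair of lines, with a lab line difference minus wild line difference of -3.21 (limma adjusted p 0.0234).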

How the results depend on the processing

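SKU5 was called between the lab lines under each alternative run. With no filter on low signals 1 member was called between the lab lines, 0 for lab minus wild, 1 in the other line pairs and 0 for the lab line difference minus the wild line difference, and of the wall family list 0, 1 and 0 were called in the first 3. When 1 array was left out, 1 to 2 members were called between the lab lines, 0 to 1 for lab minus wild, 0 to 5 in the other line pairs and 0 to 1 for the difference of line differences. These fits have fewer residual degrees of freedom, and a line left with 1 array is assumed to vary like the others. Differences that were not called changed sign in some of them. The CaCl2 response of GH9B13 ran from -0.60 to 0.20. The lab difference ran from -0.79 to 0.69 for EXPA8 and from -0.87 to 2.27 for XTH33. The wild difference ran from -0.38 to 0.72 for SKU5, from -1.24 to 0.57 for GH9B13, from -0.27 to 0.15 for EXPA4 and from -0.29 to 0.55 for EXPA8. The lab difference of EXPA8 was 0.023 with arrays centred on their medians and 0.012 with quantile normalization. The cause of these changes was not tested. The stricter filter left XTH33 out. The doses are paired within lines, and line is a term of the model as reported. Without the line term the CaCl2 response of SKU5 kept its value with an SE of 0.79 in place of 0.22, and no member was called either way. By replicate number no paired analysis was possible because all arrays carry the same number.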
